A study of Mus musculus with 6 samples.

Results

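The genes described here are 10 genes used as markers of monocytes and macrophages: Lyz2, Lyz1, Tgfbi, F13a1, Lgals3, Mpeg1, Ms4a6c, Ms4a6d, Ms4a4c and Vcan. They are 10 of the 27179 genes of the deposited table. They were selected on differences between the same 6 libraries in an earlier look at these data, as a monocytic rather than a neutrophil set. Their values in the comparison of the Asic3-null-labelled libraries with the WT-labelled ones are therefore a description, and where their calls, standard errors or intervals are given, these describe the values and support nothing.

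The libraries came from leukemia-initiating cells (LICs) of a mouse model of acute myeloid leukemia. To build the model, lineage-negative fetal liver cells, WT or Asic3-/-, were infected with a retrovirus carrying the MLL-AF9 fusion oncogene and YFP, and were transplanted into lethally irradiated C57BL/6 recipients. The YFP+Mac-1+c-Kit+ cells of the bone marrow were sorted, and their total RNA was sequenced as 3 libraries with the WT label and 3 with the Asic3-null label. All 6 share strain C57BL/6, a stated age of 8 weeks, the MLL-AF9 virus and the sort. Asic3, an acid-sensing ion channel gene, is the only difference between the groups that the labels name. The virus inserts at places that differ from cell to cell, and the recipients keep WT blood cells of their own, which carry no YFP. The sort selects on 2 surface proteins, where Mac-1 contains the Itgam protein and c-Kit is the Kit protein. The study states in general that its experiments were repeated biologically, but no source used here ties each library to a mouse. The spread and the p values measure the difference between libraries.

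Monocytes arise in the bone marrow from granulocyte-monocyte progenitors, which can also form neutrophils, and enter tissues to become macrophages. Both lineages make antimicrobial proteins, but monocytes also turn on receptor, lysosomal and matrix genes that macrophages use, while neutrophils load specific granules with proteins such as the cathelicidin encoded by Camp. MLL-AF9 leukemia resembles such a progenitor with part of the monocytic program, and its more mature cells lose c-Kit. The genes fall into 4 groups by role. Lyz2 and Lyz1 encode lysozymes, which cut bacterial cell walls. Mpeg1 encodes a pore-forming protein that phagocytes use against engulfed bacteria. Tgfbi, F13a1, Lgals3 and Vcan encode proteins that act largely outside the cell, namely a matrix adhesion protein, the catalytic subunit of coagulation factor XIII, a galactose-binding galectin and the proteoglycan versican. Ms4a6c, Ms4a6d and Ms4a4c encode membrane-spanning proteins of the Ms4a family.

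The lysozyme sequences are shown because they decide how well the genes can be told apart. On GRCm38, Lyz2 (Entrez 17105) lies on chromosome 10 from 117277541 to 117282272 and Lyz1 (Entrez 17110) from 117287795 to 117292868, both on the minus strand and 5522 bases apart. Their coding sequences in GENCODE M21 have 447 bases each and are identical at 425 of them, or 95.1%. The longest run they share has 118 bases, from base 276 to base 393 of either coding sequence. In Lyz2 it starts in exon 2 and ends in exon 4, at chr10:117278175-117280666, on the minus strand and with introns left out. The capitals mark the shared run, here the whole of it.
Lyz2 and Lyz1 coding run: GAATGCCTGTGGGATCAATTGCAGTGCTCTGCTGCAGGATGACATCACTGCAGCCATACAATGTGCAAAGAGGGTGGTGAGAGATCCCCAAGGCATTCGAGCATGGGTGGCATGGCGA
A read that falls inside this run can be assigned to either gene. Over whole transcripts, 15.4% of the 50-base stretches of Lyz2 and 16.1% of those of Lyz1 occur in the other gene. The sources used here do not say how the authors assigned such reads, so the level of Lyz1 may include reads of Lyz2.

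The sequence upstream of the pair is also alike, and most so next to the start. Both stretches below run from 209 to 50 bases before the RefSeq start of the gene, in the GRCm38.p6 assembly and on the minus strand, so that they end before the annotated transcripts. The Lyz2 stretch is chr10:117282322-117282481 and the Lyz1 stretch chr10:117292918-117293077. Counted without gaps they are identical at 95 of 160 positions, or 59.4%, but the first bases are offset, and with gaps allowed (global alignment) they are identical at 131 of 161 aligned positions, or 81.4%. The 49 bases from there to the start, not shown, are identical in both genes, as are 49 of the first 50 bases of the transcripts. Over the whole window of 300 bases 82.5% of the aligned positions are identical. The capitals mark the longest run that they share, of 14 bases.
Lyz2: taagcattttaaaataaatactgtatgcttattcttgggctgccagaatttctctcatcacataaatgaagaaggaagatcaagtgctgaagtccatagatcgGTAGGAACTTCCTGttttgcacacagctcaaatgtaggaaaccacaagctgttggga
Lyz1: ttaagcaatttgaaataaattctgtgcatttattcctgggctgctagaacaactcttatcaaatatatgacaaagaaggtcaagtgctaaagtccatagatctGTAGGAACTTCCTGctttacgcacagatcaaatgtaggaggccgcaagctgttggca
RefSeq windows from 250 bases before to 50 bases after the start were at hand for 9 of the 10 genes. Ms4a6d had no entry. F13a1 had 2 windows, the second from a start 1031 bases inside the gene. A gene counted as holding a motif if any of its windows did, while the shares of all windows are per window. The windows were searched on both strands for the PU.1 core GAGGAA, since PU.1 is a transcription factor that both myeloid lineages need. F13a1 and Ms4a4c held it, or 2 of 9 genes, against 28.3% of 32817 windows of that length. Their 160 bases before the start are shown with the core in capitals, at chr13:37050245-37050404 on the minus strand for F13a1 and chr19:11407501-11407660 on the plus strand for Ms4a4c. The RefSeq start used for Ms4a4c lies 2944 bases inside the annotated gene, since another transcript begins further upstream, so the stretch shown is inside the gene and overlaps none of its GENCODE exons.
F13a1: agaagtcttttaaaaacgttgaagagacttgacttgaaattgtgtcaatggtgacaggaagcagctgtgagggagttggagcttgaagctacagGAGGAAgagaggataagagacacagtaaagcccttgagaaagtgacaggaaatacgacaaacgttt
Ms4a4c: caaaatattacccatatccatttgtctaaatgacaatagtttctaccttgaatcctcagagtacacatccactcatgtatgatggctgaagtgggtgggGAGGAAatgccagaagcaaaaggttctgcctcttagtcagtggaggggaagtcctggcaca
Of the other motifs, the KLF motif CACCC was in 5 of 9 genes, against 57.5% of all windows. In F13a1 it lay only in the second window, which is not shown. The C/EBP motif TTGNNNCAA was in F13a1 and Mpeg1, against 5.82%. The PU.1 and IRF motif GGAANNGAA, which contains GGAA like the PU.1 core, was in Ms4a6c, against 8.25%. The C/EBP motif TTGNNCAAT, the AP-1 motif TGACTCA and the MAF motif TGCTGAC were in none, against 2.52%, 5.21% and 4.67%. A match is a description of the letters, and the libraries hold no measure of binding.

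Asic3 itself, the gene that was deleted, went against its label. It had 9.12, 4.11 and 6.58 RPKM in the Asic3-null-labelled libraries and 1.22, 1.85 and 0.435 RPKM in the WT-labelled ones, where RPKM scales the reads of a gene to its length and to the library. Xist was at 46.5 to 71.9 RPKM in the Asic3-null-labelled libraries and at or below 0.057 RPKM in the WT-labelled ones, and the Y-linked Ddx3y was at 0 and at 15.8 to 23.8 RPKM. Genotype label and sex of the cells cannot be told apart, and each direction below is by label. Whether the labels were exchanged was not tested, and exchanged labels would turn every direction. Itgam, part of the sort marker Mac-1, had 12.3 to 16.9 RPKM in the Asic3-null-labelled libraries and 55.1 to 89.5 RPKM in the WT-labelled ones, and was called lower (log2 fold change -2.35, limma adjusted p = 0.00072). Kit had 14.4 to 20.4 and 8.97 to 15.3 RPKM. The library sizes inferred from the values ran from 1947168 to 2381861 reads. A single read on a 2 kb gene gave 0.210 to 0.257 RPKM.

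All 10 genes were lower in every library labelled Asic3-null than in any WT-labelled one. Lyz2 was 10.03-fold, Lyz1 8.88-fold, Tgfbi 6.84-fold and Lgals3 4.14-fold lower in the mean, and Mpeg1, F13a1 and Ms4a6c 3.28-fold, 2.89-fold and 2.00-fold lower, as ratios of mean RPKM. The groups were tested across the 12037 genes with a mean of at least 1 RPKM, on log2(RPKM + 1) with limma. Of these, 340 genes, or 2.82%, had an adjusted p under 0.05 and were lower in the Asic3-null-labelled libraries, 63 or 0.523% were higher, and 1372 or 11.4% were lower without overlap. Of the 10 genes, 8 were tested, and all 8 were called lower and did not overlap. Ms4a6d and Vcan had a mean under 1 RPKM and were not tested, and Ms4a4c passed the filter only through the WT-labelled libraries. These counts repeat the choice of the genes and carry no weight of their own. In bulk RNA, fewer monocytic cells among the sorted cells and less of these RNAs per cell cannot be told apart.

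**Figure D1:**
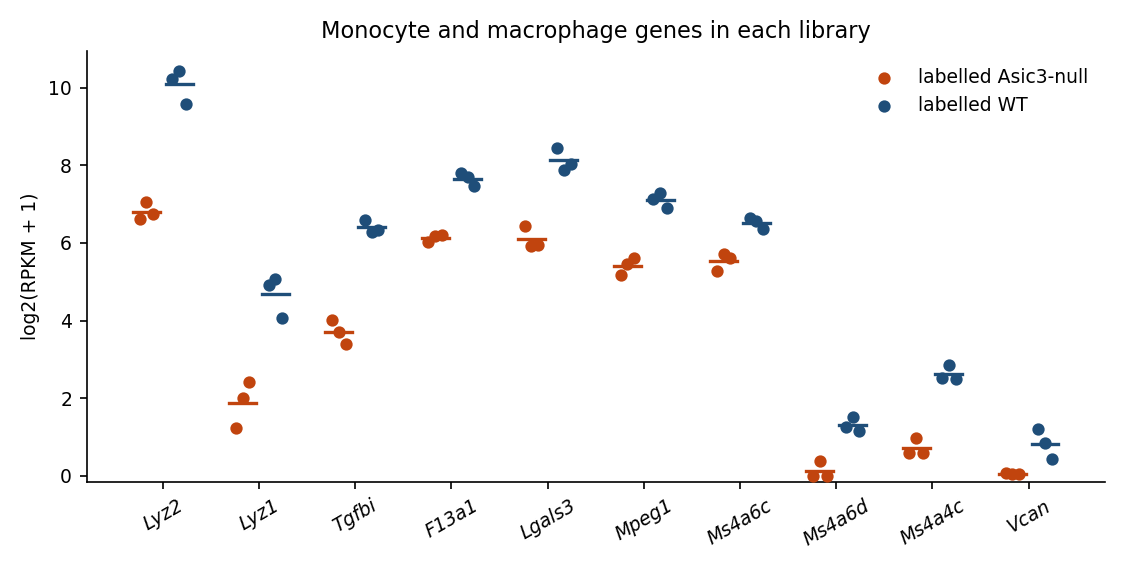
Level of each of the 10 genes in each library, as log2(RPKM + 1), with points for the 3 libraries of each label and a line at their mean. The points of the Asic3-null-labelled libraries lie below all the WT-labelled ones in every gene, and Ms4a6d and Vcan are the lowest of the 10 in both.

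Of the 8 tested genes, Lyz2 differed most. It had 96.4, 131.5 and 106.0 RPKM in the Asic3-null-labelled libraries and 1198, 1379 and 770.5 RPKM in the WT-labelled ones. Their means, 111.3 ± 18.1 and 1116 ± 313 RPKM (SD, n = 3 each), differed by a log2 fold change of -3.28 (standard error 0.22). WT replicate 3 was the lowest of its group, but still 5.86-fold above the highest library labelled Asic3-null. Lyz2 held the most RNA per length of the 10 genes in every library, and its share of all their reads was 13.6% to 16.7% in the Asic3-null-labelled libraries and 29.1% to 39.2% in the WT-labelled ones. Lyz1 had 1.37, 2.99 and 4.38 RPKM in the Asic3-null-labelled libraries and 29.3, 32.5 and 15.7 RPKM in the WT-labelled ones. Its log2 fold change was -2.79 (standard error 0.35), next to -2.69 for Tgfbi, and WT replicate 3 was again the lowest of its group. Without Asic3-null replicate 1, Lyz1 had -2.47 and Tgfbi -2.85, and without WT replicate 2, Lyz1 had -2.60 and Tgfbi -2.76, so the order of these genes rests on single libraries. The level of Lyz1 was 1.42% to 4.13% of that of Lyz2 in the Asic3-null-labelled libraries and 2.04% to 2.45% in the WT-labelled ones, so these shares overlap. Of the other 8 genes of the lysozyme and lactalbumin family, 7 were at 0 in every library and the other one, Lalba, reached 0.589 RPKM in a single library.

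Mpeg1, which makes the pore-forming protein, lies on chromosome 19 from 12460770 to 12465285. It had 34.9, 42.9 and 48.0 RPKM in the Asic3-null-labelled libraries and 138.6, 154.1 and 119.3 RPKM in the WT-labelled ones. The 3 libraries of each label lay close together (means 41.9 ± 6.64 and 137.4 ± 17.4 RPKM, SD), and the lowest WT library was 2.49-fold above the highest labelled Asic3-null. Perforin 1 (Prf1), the related pore-forming protein of killer lymphocytes, was at 0 in every library.

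The genes of secreted and matrix-binding proteins covered a wide range of levels. Tgfbi (chromosome 13, 56609586 to 56639359) had 15.2, 12.1 and 9.54 RPKM in the Asic3-null-labelled libraries and 95.4, 76.3 and 79.8 RPKM in the WT-labelled ones. Lgals3 (chromosome 14, 47373860 to 47386167) had 85.1, 59.4 and 60.6 RPKM in the Asic3-null-labelled libraries and 350.8, 233.8 and 263.5 RPKM in the WT-labelled ones. Neither overlapped between the labels, and the lowest WT library was 5.04-fold above the highest labelled Asic3-null for Tgfbi and 2.75-fold above it for Lgals3. F13a1 (chromosome 13, 36867178 to 37050244) had 63.6, 71.2 and 73.4 RPKM in the Asic3-null-labelled libraries and 220.9, 205.2 and 174.6 RPKM in the WT-labelled ones. Its coefficient of variation was 7.45% in the Asic3-null-labelled libraries, the lowest of the 10 genes there, and 11.8% in the WT-labelled ones. The lowest WT library was 2.38-fold above the highest labelled Asic3-null. Vcan (chromosome 13, 89655309 to 89743027) had next to no reads under the Asic3-null label, with 0.059, 0.029 and 0.029 RPKM in the Asic3-null-labelled libraries and 1.33, 0.804 and 0.345 RPKM in the WT-labelled ones. In reads inferred from these values this was 2, 1 and 1 against 41, 23 and 12. The ratio of the summed reads, corrected for depth, was 20.9 with a 95% exact interval of 7.82 to 78.5, which covers counting error only. Among the WT-labelled libraries it varied more than any other of the 10 genes, with a coefficient of variation of 59.5%.

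Genes related to these proteins gave these values. Of 6 tested genes of the galectin list outside Lgals3, among them the binding protein gene Lgals3bp, none was called by limma. Their log2 fold changes ran from -0.30 to 0.40. Lgals1, Lgals8 and Lgals9, which were above 10 RPKM in every library, each overlapped between the labels. Of 5 tested genes of the matrix and transglutaminase list outside the 10, fibronectin (Fn1) was called, lower, with 22.5 to 36.1 RPKM in the Asic3-null-labelled libraries and 160.4 to 216.6 RPKM in the WT-labelled ones (log2 fold change -2.84, limma adjusted p = 0.00022). Tgm1, a transglutaminase like the product of F13a1, had a mean of 2.46 RPKM in the Asic3-null-labelled libraries and 6.24 RPKM in the WT-labelled ones, without overlap, and was not called (log2 fold change -1.05, limma adjusted p = 0.064). The other tested genes of that list, Tgm3, Tgm4 and Cd44, overlapped between the labels. The B subunit of factor XIII, encoded by F13b, was at 0 in every library. Platelets carry the A subunit too. Of 11 platelet markers, 8 stayed under 1 RPKM in every library, among them Pf4 and Ppbp at 0. Itga2b, which progenitors also express, had 10.4 to 22.0 RPKM in the Asic3-null-labelled libraries and 5.65 to 10.8 RPKM in the WT-labelled ones, with overlap. Gp1bb was called lower, a call lost in 7 of 14 alternatives. The part of platelets in the level of F13a1 was not tested.

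The 3 Ms4a genes sit in a cluster on chromosome 19. Ms4a6c (11469353 to 11487182) had 37.9, 51.1 and 47.9 RPKM in the Asic3-null-labelled libraries and 99.6, 93.6 and 81.3 RPKM in the WT-labelled ones. Its log2 fold change of -0.99 (standard error 0.15) was the smallest of the 8 tested genes, and its lowest WT library was 1.59-fold above the highest labelled Asic3-null. Ms4a4c (11404717 to 11427246) had 0.501, 0.975 and 0.494 RPKM in the Asic3-null-labelled libraries and 4.69, 6.26 and 4.66 RPKM in the WT-labelled ones. That was 2, 4 and 2 inferred reads against 17, 21 and 19, and the ratio of the summed reads corrected for depth was 7.82 (95% exact interval 3.71 to 18.99, counting error only). Ms4a6d (11586606 to 11604804) had 0, 1 and 0 inferred reads in the Asic3-null-labelled libraries and 4, 5 and 4 in the WT-labelled ones, or 0 to 0.306 and 1.23 to 1.87 RPKM. The ratio of the summed reads was 14.3 with a 95% exact interval of 2.14 to 606.6, so its size is not fixed at this depth.

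Around them, 20 Ms4a genes were listed between 10962289 and 12465285, a span that ends with Mpeg1. Of these, 8 were at 0 in every library, 5 had some reads but a mean under 1 RPKM, and 7 had a mean of at least 1 RPKM. Ms4a3, a gene of granulocyte-monocyte progenitors, had the highest mean RPKM of the cluster, with 41.8, 77.2 and 83.3 RPKM in the Asic3-null-labelled libraries and 93.1, 146.2 and 168.6 RPKM in the WT-labelled ones. Its groups did not overlap, but it was not called (log2 fold change -1.02, limma adjusted p = 0.12). Ms4a4a, with 0, 1.00 and 0 RPKM against 5.69, 5.53 and 4.55 RPKM, and Ms4a8a, with 1.20, 1.16 and 0 RPKM against 11.9, 17.6 and 6.64 RPKM, were called lower (limma adjusted p = 0.0073 and 0.0069). Like Ms4a4c, both passed the filter only through the WT-labelled libraries. Ms4a4b and Ms4a6b had log2 fold changes of -0.70 and -0.90 and were not called (limma adjusted p = 0.28 and 0.11). Of the 50-base stretches of Ms4a4c, 7.67% occur in Ms4a4b, and of those of Ms4a6c, 6.08% occur in Ms4a6b and none in Ms4a6d. Of the 5 other tested genes of the span, 1 was called. AW112010, next to Ms4a8a, had 2, 2 and 1 inferred reads in the Asic3-null-labelled libraries and 10, 9 and 6 in the WT-labelled ones, and was called lower (log2 fold change -1.65, limma adjusted p = 0.019). It too passed the filter only through the WT-labelled libraries. That call was lost in 6 of 14 alternatives, among them those that leave out WT replicate 1, WT replicate 2, Asic3-null replicate 2 or Asic3-null replicate 3. The other 4, Mrpl16, Stx3, Patl1 and Osbp, overlapped between the labels, with log2 fold changes of 0.34, -0.12, 0.04 and 0.02.

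**Figure D2:**
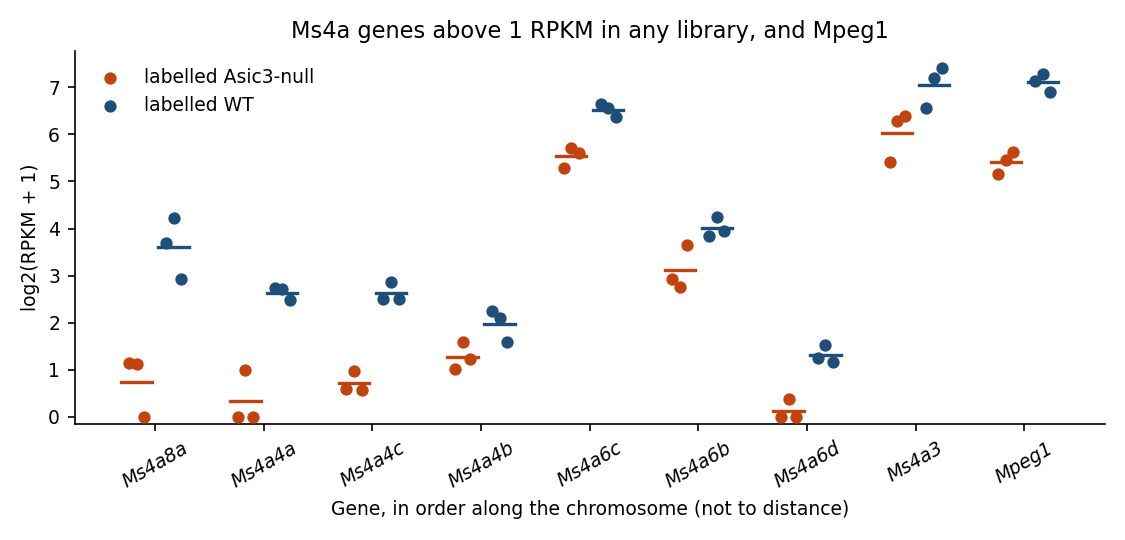
Ms4a genes above 1 RPKM in any library, and Mpeg1, in their order along chromosome 19, as log2(RPKM + 1), with points for the libraries and a line at their mean. No gene shown overlaps between the labels, while the distance between the means differs from gene to gene, from 0.70 for Ms4a4b to 2.86 for Ms4a8a.

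The order of the 10 genes by RPKM, which is per length, changed in the middle ranks. In the WT-labelled libraries it ran Lyz2, Lgals3, F13a1, Mpeg1, Ms4a6c, Tgfbi, Lyz1, Ms4a4c, Ms4a6d and Vcan, and neighbours overlapped only for Ms4a6c with Tgfbi and Ms4a6d with Vcan. In the Asic3-null-labelled libraries, F13a1 and Lgals3 followed Lyz2 with overlapping values, then Ms4a6c and Mpeg1 with overlapping values, then Tgfbi and the rest in the same order, with Ms4a6d and Vcan again overlapping. Together the 10 genes took 0.0744% to 0.0832% of the reads in the Asic3-null-labelled libraries and 0.280% to 0.376% in the WT-labelled ones. WT replicate 3 was the lowest of its group in 8 of the 10 genes, the exceptions being Tgfbi and Lgals3. The median log2 fold change of the 8 tested genes was -2.02 without it and -1.97 with all libraries, against 0.03 over all 12037 genes. As these libraries chose the genes, these values are a description. Among all other tested genes, Clec4a1, S100a4, Lilra6, Slc15a3 and Adam19 had the profiles most like the mean profile of the 8, with a root mean square difference of 0.095 to 0.20 log2 units over the 6 libraries. The 8 genes themselves differed from that mean profile by 0.19 for Ms4a4c to 0.61 for Lyz2.

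Other markers of classical monocytes were split. These are the inflammatory monocytes that leave the marrow through the receptor Ccr2. Of 24 tested genes of this list outside the 10, 13 were called lower, against 2.82% of all tested genes, and none higher. Like every list used here, this list was chosen with earlier results of these data known, so its counts are a description. Of the 24, 23 had a log2 fold change below 0, and the median was -1.14. Among the 13, Clec4a1 and Clec4a3 passed the filter only through the WT-labelled libraries. Csf1r, the receptor for the growth factor that monocytes live on, had 22.6, 19.2 and 26.9 RPKM in the Asic3-null-labelled libraries and 77.1, 67.5 and 54.8 RPKM in the WT-labelled ones (log2 fold change -1.50, standard error 0.18, limma adjusted p = 0.0026). Ccr2 had 3.25, 3.39 and 2.85 RPKM against 13.1, 10.3 and 8.36 RPKM (log2 fold change -1.46, limma adjusted p = 0.0077). Ccl6, a chemokine, Clec4a1, a lectin receptor, and Cybb, the core of the phagocyte oxidase, were called with log2 fold changes of -2.32, -2.26 and -1.59. Cd14, the lipopolysaccharide co-receptor, had 14.4, 24.96 and 26.7 RPKM against 43.5, 75.1 and 54.5 RPKM (limma adjusted p = 0.028), a call lost in 7 of 14 alternatives, among them without each library labelled Asic3-null and without WT replicate 2 or 3, with an adjusted p of up to 0.087.

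The most abundant genes of the classical list, Plac8, Ly6c2 and Tyrobp, were not called. Ly6c2, which encodes the antigen that defines these monocytes, had 1021, 1133 and 962.8 RPKM in the Asic3-null-labelled libraries and 1371, 1252 and 1325 RPKM in the WT-labelled ones. The groups did not overlap, but the log2 fold change was -0.34 and it was not called (limma adjusted p = 0.17). Ly86, Emb and Plac8 overlapped between the labels, with log2 fold changes of -0.01, -0.03 and 0.12. In sum the list had 5897 to 7233 RPKM in the Asic3-null-labelled libraries and 7811 to 8044 RPKM in the WT-labelled ones.

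Markers of later monocyte and macrophage states were detected in part. Of 8 tested genes of nonclassical monocytes, the patrolling form, 2 were called lower, Itgal and Fcgr4 (limma adjusted p = 0.035 and 0.026). Their calls were lost in 8 and 5 of 14 alternatives. With the replicate number as a block and without Asic3-null replicate 2, WT replicate 1 or WT replicate 2, none was called. Nr4a1, the factor that this form depends on, had 14.1 to 40.8 RPKM in the Asic3-null-labelled libraries and 32.3 to 67.6 RPKM in the WT-labelled ones, and Cx3cr1 had 0.579 to 2.40 and 2.38 to 6.61 RPKM, and both overlapped. Of 20 genes of tissue macrophages, 11 stayed under 1 RPKM in every library. Among them, the mannose receptor Mrc1 did not exceed 0.081 RPKM, and Timd4 and Spic were at 0 in all 6. Of the 9 tested, 3 were called lower. Adgre1, which encodes the F4/80 antigen, had 7.99, 9.57 and 13.4 RPKM in the Asic3-null-labelled libraries and 29.3, 28.5 and 25.1 RPKM in the WT-labelled ones (limma adjusted p = 0.0073). Hmox1, which breaks down heme, and Gpnmb, a lysosomal membrane glycoprotein, had log2 fold changes of -2.33 and -2.69 (limma adjusted p = 0.000396 and 0.0080). Gpnmb varied from 25.6 to 92.4 RPKM within the WT-labelled libraries.

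Lysosomal genes, which both phagocyte lineages use, moved in part. Of 13 tested genes of the pore-forming and lysosomal list outside Mpeg1, 5 were called lower, namely Psap, Ctsl, Grn, Lgmn and Ctsb, and none higher. The calls of Psap and Ctsl held in all 14 alternatives. Those of Grn, Lgmn and Ctsb were lost in 3, 5 and 12 of them, in each case among others without Asic3-null replicate 3. Psap, the precursor of the saposins that help to break down lipids, had 258.6, 196.6 and 233.3 RPKM in the Asic3-null-labelled libraries and 495.6, 535.4 and 460.1 RPKM in the WT-labelled ones (log2 fold change -1.12, limma adjusted p = 0.0026). The median over the 13 was -0.36.

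Most transcription factors of the lineage were not called. Of 14 tested genes of the monocyte list, Zfp36l1 and Id2 were called lower, with log2 fold changes of -1.73 and -1.98 (limma adjusted p = 0.0011 and 0.0030), and the median was -0.44. The log2 fold change was below 0 in 12 of the 14. Egr1 and Egr2 went the other way, with log2 fold changes of 1.14 and 0.61, but overlapped between the labels and were not called. Zfp36l1 encodes an RNA-binding protein and Id2 an inhibitor of DNA-binding factors, rather than factors that bind DNA themselves. Irf8, which drives monocyte over neutrophil fate, had 104.3, 135.6 and 139.7 RPKM in the Asic3-null-labelled libraries and 207.8, 151.6 and 157.1 RPKM in the WT-labelled ones. It did not overlap and was not called (log2 fold change -0.44, limma adjusted p = 0.24). Klf4, which acts with it, overlapped (log2 fold change -0.52). Spi1, which encodes PU.1, had 300.6 to 339.2 and 391.1 to 446.3 RPKM, without overlap, and was not called (log2 fold change -0.38, limma adjusted p = 0.14). Of 9 tested genes of the neutrophil list of factors, Cebpb was called, lower, with a log2 fold change of -0.74 (limma adjusted p = 0.046), a call lost in 9 of 14 alternatives, among them without each library but WT replicate 2. Gfi1, a repressor that neutrophil precursors need, had a log2 fold change of -0.12 with overlap, and Cebpe, which drives the specific granule genes, of 0.40 without overlap, and neither was called.

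Neutrophil maturation genes were lower as well. Of 24 tested genes of that list, 20 were called lower and none higher, all 24 had a log2 fold change below 0, and the median was -2.60, against -1.97 for the 8 monocyte and macrophage genes. These medians lay closer together with a pseudocount of 0.1, at -2.70 and -2.41, and with limma-voom, at -2.685 and -2.42. Itgb2l and Wfdc21, among the 20, passed the filter only through the WT-labelled libraries. Camp had 5.05, 13.3 and 13.5 RPKM in the Asic3-null-labelled libraries and 445.4, 545.3 and 375.9 RPKM in the WT-labelled ones (log2 fold change -5.39, limma adjusted p = 8.1e-05). Ngp, S100a9 and S100a8, a granule protein and the paired calcium-binding proteins of neutrophils and monocytes, had log2 fold changes of -4.08, -4.35 and -4.20, and the granule protein gene Olfm4 one of -2.60. All were called by limma. The 4 tested genes not called were Hp, Pglyrp1, Ceacam1 and Trem1, with log2 fold changes of -0.50, -0.56, -0.76 and -1.07. Hp, the most abundant of the list, had means of 1124 RPKM under the Asic3-null label and 1580 RPKM under the WT label. Ly6g was not tested, with 1 inferred read in Asic3-null replicate 1 and none in any other library. Of the 24 genes, 8 had a lower log2 fold change than Lyz2 and 17 a lower one than the median of the monocyte and macrophage genes. The 2 lists share no gene, although Lyz2 and Lgals3 are also made by neutrophils. Genes of both lineages were thus lower, and the difference between the lists was not tested. Both lists were chosen with earlier results of these data known, so their counts are a description and no separate evidence.

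Genes of the progenitor stage and its primary granules showed little of this. Of 13 tested, Elane, the neutrophil elastase gene, was called, lower, with a log2 fold change of -0.88 (limma adjusted p = 0.043). That call was lost in 8 of 14 alternatives, among them without each library but WT replicate 1. The median over the list was 0.19. Mpo, the myeloperoxidase gene, ranged from 242.2 to 336.6 RPKM in the Asic3-null-labelled libraries and from 190.9 to 789.5 RPKM in the WT-labelled ones and overlapped. Kit overlapped too and was not called (log2 fold change 0.64, limma adjusted p = 0.22).

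**Figure D3:**
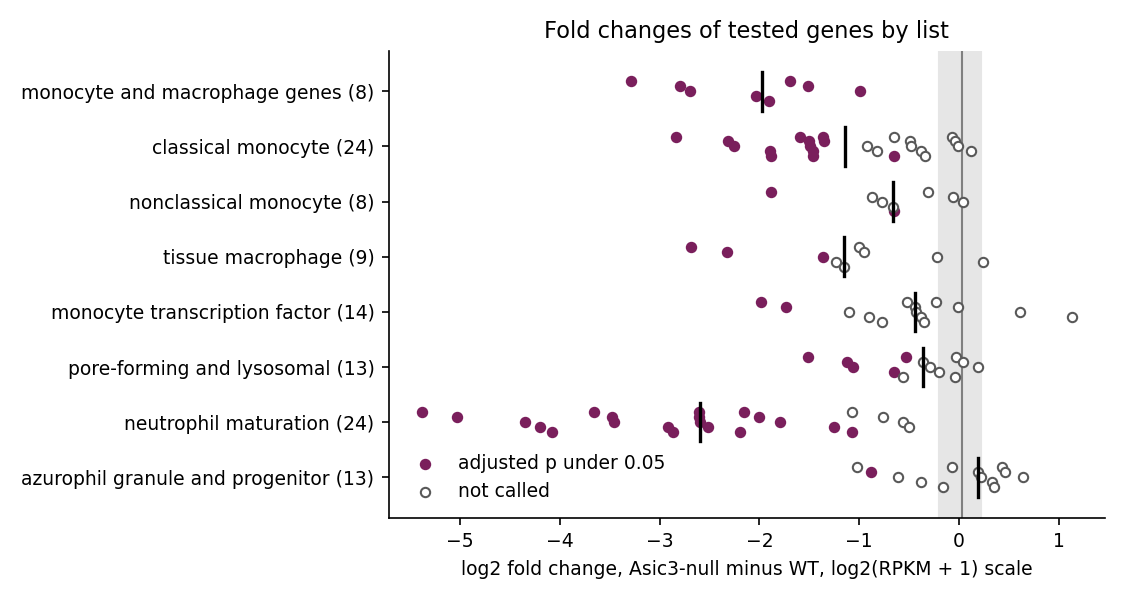
Log2 fold change, Asic3-null minus WT, on the log2(RPKM + 1) scale for the tested genes of each list, with the number tested in parentheses, filled points for an adjusted p under 0.05 and a black bar at each median. The grey line and band are the median and the middle 50% of all 12037 tested genes. The 8 monocyte and macrophage genes have a median of -1.97, between the other classical monocyte genes at -1.14 and the neutrophil maturation genes at -2.60.

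The lists can also be set side by library. The median level of the 8 genes, as a percentage of their WT mean, was 21.7%, 19.9% and 19.2% in the Asic3-null-labelled libraries. Neutrophil maturation genes stood at 12.1%, 15.9% and 12.3%, the other classical monocyte genes at 41.5%, 43.4% and 43.4%, and nonclassical genes at 56.7%, 61.1% and 67.9%. The tissue macrophage list, with 9 tested genes, stood at 28.9%, 34.6% and 48.4%, below the classical list in replicates 1 and 2 and above it in replicate 3. The progenitor and primary granule list stood at 103.5%, 116.4% and 103.7%. All these percentages have the same WT means as their base, and the 8 genes were chosen on these libraries.

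**Figure D4:**
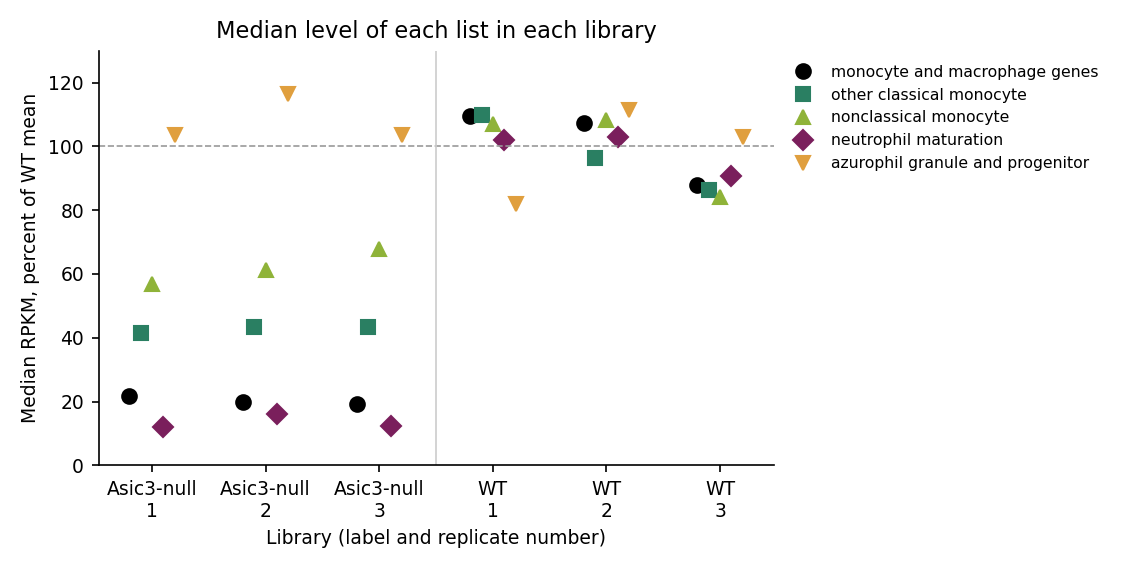
Median RPKM of the tested genes of 5 lists in each library, as a percentage of each gene's mean in the WT-labelled libraries, with 1 marker shape per list and a dashed line at 100%. In the 3 libraries labelled Asic3-null these 5 lists lie apart in the same order, the tissue macrophage list not being drawn, and in the WT-labelled ones they lie between 81.8% and 111.3%.

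Markers of other cell types gave these levels. Of 15 T cell and NK cell markers, 12 stayed under 1 RPKM in every library, with Cd3e, Cd4 and Cd8a at 0, and the summed level was 9.74 to 18.95 RPKM in the Asic3-null-labelled libraries and 13.3 to 20.8 RPKM in the WT-labelled ones. B cell markers summed to 120.1 to 183.4 and 142.5 to 256.0 RPKM, with Ms4a1 at 0. Erythroid markers summed to 27.3 to 34.0 and 32.0 to 37.3 RPKM. Platelet markers summed to 12.2 to 23.6 and 12.4 to 17.9 RPKM, and Gp1bb, at 0.621 to 2.04 and 4.43 to 8.90 RPKM, was called lower (limma adjusted p = 0.025), a call lost in 7 of 14 alternatives, among them those that leave out WT replicate 1, WT replicate 3, Asic3-null replicate 1 or Asic3-null replicate 2. Mast cell, basophil and eosinophil markers summed to 144.5 to 155.7 and 84.5 to 219.3 RPKM. These 5 sums overlap between the labels. Dendritic cell markers summed to 324.6 to 372.0 and 225.9 to 324.1 RPKM and endothelial and stromal markers to 67.0 to 84.6 and 48.7 to 61.7 RPKM, both higher in the Asic3-null-labelled libraries. The dendritic cell sum is mostly Flt3, which progenitors also express, at 174.6 to 207.6 and 123.2 to 183.2 RPKM. Flt3, Tcf4 and Bst2 each overlapped between the labels. Of the 12 endothelial and stromal markers, 10 stayed under 1 RPKM in every library. The other two were Pecam1, at 33.5 to 54.4 and 37.7 to 42.2 RPKM with overlap, and Pdgfrb, at 22.4 to 38.2 and 10.7 to 19.2 RPKM, which did not overlap and was not called (log2 fold change 0.97, limma adjusted p = 0.091). H2-Ab1, of the class II antigen presentation genes, was called higher (log2 fold change 0.88, limma adjusted p = 0.029), a call lost in 7 of 14 alternatives, among them without each library but Asic3-null replicate 1. Cd74, which works with class II, had a log2 fold change of -0.84 with overlap and was not called, and Zbtb46, Xcr1 and Cd209a stayed under 1 RPKM. The part of any of these cells, and of mature neutrophils or monocytes within the sort, in the levels of the 10 genes was not tested.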

How the data were processed

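The 6 libraries of sorted LICs, 3 labelled Asic3-null and 3 labelled WT, were grouped by their GEO labels. The authors deposited RPKM values per gene and library, identified by Entrez number. Per the submitters' processing notes, they used CASAVA 1.8.2 and TopHat2 2.0.12 with GRCm38. The library kit does not mark strand. The counting tool, the annotation and the treatment of reads that match several genes are not given in the sources used here. Symbols and coordinates were matched by Entrez number to RefSeq for GRCm38.p6 (25275 of 27179 genes), and transcripts came from GENCODE M21.

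Whole reads were inferred from the RPKM values with the gene lengths in whole bases that make them whole. This held for each of the 16825 genes above 0, to within 0.0001 reads. The library sizes were 2315406, 2381861 and 2348251 reads (Asic3-null label) and 2102707, 1947168 and 2367414 reads (WT label), with 99.6% to 99.7% of them on genes. The authors do not state these numbers. Exact intervals from them (95%) use the reads summed over the libraries of each label. They leave out the spread between libraries and so cover counting error only. The reads also carry no molecular identifiers.

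Genes with a mean of at least 1 RPKM were tested on log2(RPKM + 1), which understates the change of low genes, with limma 3.58.1 in R 4.3.3 (moderated test with an intensity trend, with the label alone in the model). P values were adjusted over all tested genes by the Benjamini-Hochberg method, with a threshold of 0.05. The step was tested on simulated data. Other steps used Python 3.11.15, numpy 2.4.6, pandas 2.3.3 and scipy 1.17.1. Tests across all genes used the whole table, and an exact permutation of 3 against 3 was not used, as it cannot go below 0.10.

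The genes and the lists were chosen with earlier results of these data known. Named were the 10 genes, a fixed set of sort, lineage and factor genes, up to 5 called genes of each list by lowest p, every Ms4a and lysozyme gene with a mean of at least 1 RPKM, and the 5 genes of most similar profile. Others, such as Ly86, Emb, Plac8, Tyrobp, Itga2b, Pecam1, Pdgfrb, Tgm1, Tgm3, Tgm4, Flt3, Cd74, the other tested genes of the Ms4a span, Lalba, Prf1, F13b and single markers at or near 0, were picked once their values were known. Hp, Pglyrp1, Ceacam1, Trem1, Ly6g, Egr1 and Egr2 were also picked once their values were known. The alternatives were a pseudocount of 0.1, no filter, a mean of at least 5 RPKM, no intensity trend, quantile normalization, median-ratio scaling, the replicate number as a block, limma-voom on the inferred reads, and each library left out in turn.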

Additional observations from a re-analysis of the deposited data

How the results depend on the processing

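All 111 log2 fold changes of the tested genes among the 10 stayed below 0 over the 14 alternatives. Only that of Ms4a4c moved by more than the spread between libraries, to -2.85 with a pseudocount of 0.1 and -2.80 with limma-voom. The median of the tested genes among the 10 moved to -2.41 with that pseudocount and -2.42 with limma-voom. The number of them called was 7 with a mean of at least 5 RPKM, which leaves out Ms4a4c, and 9 with no filter. Over all genes, 246 were called with the replicate block and 203 to 293 with 1 library left out, against 403. Of the nonclassical monocyte genes, 1 was called with no filter, 1 with no intensity trend, 0 with the replicate block and 0 to 1 with 1 library left out, against 2. The counts of classical monocyte, tissue macrophage and neutrophil maturation genes stayed within 1.5 times their main value under every alternative, and the median of the neutrophil list stayed between -2.70 and -2.45. Libraries with the same replicate number had correlations of 0.0591, -0.0593 and -0.123 of their deviations from the group means. With 3 libraries per label, these values cannot decide whether the numbers pair the libraries. The replicate block changed no call among the 8 genes. The median-ratio and quantile scalings moved the median of all genes to 0.02 and 0.06. In the Asic3-null-labelled libraries Vcan, Ms4a6d and Ms4a4c rest on at most 4 inferred reads in any library, which limits the size of their difference.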

Other observations

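Other genes with a profile like that of the 10 genes over the 6 libraries gave these values. S100a4, a calcium-binding protein of motile cells, had 9.52, 11.8 and 10.2 RPKM in the Asic3-null-labelled libraries and 51.5, 57.6 and 48.3 RPKM in the WT-labelled ones (log2 fold change -2.22, limma adjusted p = 0.00015). Lilra6, a receptor of the leukocyte immunoglobulin-like family, had 0.168, 0.489 and 0.165 RPKM against 4.80, 5.18 and 2.62 RPKM (log2 fold change -2.00, limma adjusted p = 0.0098). Slc15a3, a lysosomal peptide and histidine transporter, had 3.13, 3.04 and 3.27 RPKM against 17.4, 13.6 and 11.5 RPKM (log2 fold change -1.85, limma adjusted p = 0.0018). Adam19, a membrane metalloprotease, had 0.068, 0.460 and 0.400 RPKM against 5.51, 3.54 and 2.84 RPKM (log2 fold change -1.90, limma adjusted p = 0.012). Lilra6 and Adam19 passed the filter only through the WT-labelled libraries. All 4 were picked for this likeness from the same libraries, so their differences are no separate evidence.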
